A study of Mus musculus with 20 samples.

Results

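A set of 3654 adenosines was examined that already read as guanosine in libraries that had received no antibody and no deaminase. A site was taken where the reference base was A or T and the pooled untreated libraries of at least 1 of the 2 embryo editing tables had 20 or more reads, with the edited base in 5% or more of them. The sites were chosen by these untreated levels. In the fixed embryo table, 1070 of 18524 such sites with 20 untreated reads qualified (5.78%), and in the fresh-frozen embryo table, 2625 of 60521 did (4.34%). In both, 41 sites qualified, which is 3.83% of the fixed set and 1.56% of the fresh-frozen set. Most sites could not qualify in both for want of reads in the other table. Of the fixed set, 64 sites had 20 untreated reads in the fresh-frozen table, and of the fresh-frozen set 74 had them in the fixed table. In all, the 4 editing tables list 783945 positions, and 74360 other A-to-G sites with 20 untreated reads did not qualify. Untreated levels are therefore given below as a description, and so is every comparison of antibody libraries with untreated ones.

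The study read RNA near the RNA-binding protein G3BP1 by MAPIT-seq in sections of C57BL/6J mice of genotype WT. A rabbit antibody, a guinea pig anti-rabbit antibody and the fusion rAPOBEC1-pAG-hADAR2 place a cytidine deaminase and an adenosine deaminase on the section, so that nearby RNA gains A-to-G and C-to-T changes. The 20 libraries form 10 groups of 2. Sections labelled E10.5 embryo, once as fixed and once as fresh-frozen, gave untreated, rabbit IgG and Anti-G3BP1 libraries. Brain at E12.5 and at E16.5 gave the last 2 kinds. Antibody libraries were fixed with FA, while the labels give untreated libraries no fixation, although those of the fixed embryo are called fixed in their titles. No untreated brain library was analysed here, so all brain values include whatever the fusion adds, and endogenous and added editing cannot be told apart there. Nothing in the labels says whether the 2 libraries of a group are of different animals, and p-values then cover the spread of these libraries alone, which may be technical.

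As background, the enzymes ADAR1 and ADAR2, made from Adar and Adarb1, turn adenosine into inosine within double-stranded RNA, and sequencing reads inosine as guanosine. A handful of edited codons are well known in the brain, above all those of the AMPA and kainate glutamate receptors, where editing changes ion passage or the speed of recovery. Most edited adenosines lie instead in untranslated or non-coding sequence, often where copies of a repeat fold back on each other. A genomic variant, a read from a near-identical gene copy or an error can give the same change in a table of reads.

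The sequences that carry the results below are printed on the transcribed strand, 29 bases each, with the site as the capital A. They come from GENCODE vM21 transcripts on the build GRCm38. The sites of Gria2, Gria4 and Grik2 come at the start, since they are well-known edited codons. Grik5 K889R, which was called between brain stages, and Prdm2 K1407E, a coding site outside receptors, follow. Then come 5 more sites called between brain stages, 1 site with many untreated reads (Draxin), 1 pseudogene site and 1 site seen in a single library. Where no interval is given, the window crosses an exon junction.
Gria2 Q607R, chr3:80706898-80706926, minus strand: gggtgcctttatgcAgcaaggatgcgata
Grik2 Q621R, site at position 49244330 of chromosome 10, minus strand: tggagctctcatgcAgcaaggttctgagc
Gria2 R764G, site at position 80692286 of chromosome 3, minus strand: aaggatcctcattaAgaaatgcggttaac
Gria4 R765G, site at position 4456006 of chromosome 9, minus strand: agggttcctcattaAgaactcctgtaaac
Grik2 I567V, chr10:49272775-49272803, minus strand: atatctggatgtatAttctgctggcttac
Grik5 K889R, chr7:25010629-25010657, minus strand: actcagcaacggcaAgctctactcggccg
Prdm2 K1407E, chr4:143132486-143132514, minus strand: aaatgtctccaaatAagctcaagctaaat
Tspan31 3' UTR, chr10:127067868-127067896, minus strand: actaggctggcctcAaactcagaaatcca
Akap8 3' UTR, chr17:32304577-32304605, minus strand: accaggcaggcctcAaactcagaaatcta
Zfp811 3' UTR, chr17:32796119-32796147, minus strand: gtgagcagccttgtAggtgctgggatctg
Rpa1 3' UTR, chr11:75301001-75301029, minus strand: ttcaaacagaaattAtgtcacaagtcatt
Hjurp 3' UTR, chr1:88263974-88264002, minus strand: tgccctgcctttgaAgtcccacctgcctg
Draxin 3' UTR, chr4:148100359-148100387, minus strand: cactacacagtcctAgctgatctgaaatt
Gm16418 non-coding exon, chr1:166431746-166431774, minus strand: ggccacggactggcAgctgatcctggact
Rasgrp2 K74E, chr19:6403053-6403081, plus strand: attctctacagatgAaaacgtgtcacttg

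Related sites share letters around the A. Gria2 R764G and Gria4 R765G have the same 13 bases across the site, and 23 of their 29 bases are equal. Gria2 Q607R and Grik2 Q621R share 11. The 3' UTR windows of Tspan31 and Akap8, which are unrelated genes, share 19 bases across the site and 26 of 29 in all. A window in the 3' UTR of Dlg4, the gene of the postsynaptic scaffold PSD-95, shares 18 bases with that of Tspan31. Over the 3625 sites with a full window, 46 (1.27%) had the same 15 central bases as a site in another gene, and these included 9 sites within runs of alternating C and A.

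Depth and tissue set limits on these values. Listed sites had a mean of 23.1 to 145 reads in the fixed embryo libraries, 42.1 to 70.6 in the fresh-frozen ones, 13.8 to 42.8 in E12.5 brain and 98.6 to 172 in E16.5 brain. The second untreated library of the fixed embryo was the shallowest of its table. In the embryo tables single edited reads were rare: the first untreated fixed library had 1963 sites with 1 edited read and 13019 with 2. Marker genes of the fresh-frozen libraries did not match a whole E10.5 embryo. Their 6 heart muscle markers summed to 6.84 to 27.6 TPM, against 3361 to 5292 TPM in the fixed embryo, and none of 6 trunk Hox genes reached a mean of 1 TPM. Their 6 markers of late neurons, genes of mature synapses, summed to 909 to 1342 TPM, against 8.84 to 17.5 TPM in the fixed embryo. These libraries are therefore called by their label only, and what the difference in tissue adds to the differences between the 2 embryo tables was not tested. In bulk sections, more cells of a type and more RNA per cell cannot be told apart.

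The sites fell into 3 levels. Of the 3654 sites 3474 lay between 5 and 20% edited reads, 85 between 20 and 80%, and 95 at 80% or more. Evidence was thin for most: 2896 sites rested on exactly 2 edited untreated reads, and 747 on 3 or more. In each table the lowest sites taken were at 5.0% and the highest left out at 4.96%, and 331 and 1021 sites lay between 4 and 5% in the fixed and the fresh-frozen table. By place, 1695 sites lay in 3' UTRs, 1406 in coding sequence, 489 in non-coding exons and 59 in 5' UTRs. Of 1404 coding sites outside the mitochondrial genome, 1037 changed an amino acid and 367 were synonymous. The sites spread over 2873 genes, of which 2321 held 1 site and 43 held 4 or more.

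Sites in glutamate receptors recurred in the antibody libraries. The recoding list, 31 genes known to be edited, most of them in codons, held 26 of the sites in 12 genes. Of these, 19 lay in coding sequence, and 12 of the 19 rested on 3 or more untreated edited reads. Gria2 encodes the AMPA receptor subunit whose edited Q/R codon blocks calcium entry. Its Q607R site at 3:80706912 (exon 11) was edited in 83.3% and 79.6% of reads in the untreated fresh-frozen libraries (79 of 97 pooled, exact 95% interval 72.3 to 88.6%). The IgG libraries gave 84.6% and 89.7% and the anti-G3BP1 libraries 82.9% and 74.4%. Both IgG libraries were above the other 4, while untreated and anti-G3BP1 libraries overlapped. In E16.5 brain the same site had 81.8% and 80% in IgG and 100% and 100% in anti-G3BP1, on 6 to 11 reads a library. The synonymous neighbour at 3:80706908, in the same exon, stood at 9.78% without treatment and 8.84% in the antibody libraries, with 0 of 34 reads in E16.5 brain (a count of 0 allows up to 8.82%).

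The R/G codons, which set how fast AMPA receptors recover from desensitization, were lower. At Gria2 R764G (3:80692286, exon 13) untreated reads were 19.4% and 15.2% edited. IgG libraries gave 33.3% and 26.2%, and anti-G3BP1 libraries 26.2% and 29.7%. All 4 antibody libraries were above both untreated ones, a comparison given without a test because untreated values chose the site. Gria4 R765G (9:4456006, exon 14) rested on 5 of 21 untreated reads (23.8%) and 5 of 24 antibody reads (20.8%).

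Kainate receptor sites followed. Grik2, the GluK2 subunit, is edited in its pore and in the preceding membrane segment. Its Q621R site (10:49244330) had 38.2% and 25% in the untreated libraries and 50% over 32 antibody reads. I567V (10:49272789) had 15.8% of 38 untreated reads and 12.7% of 55 antibody reads, and Y571C (10:49272776) had 5.88% of 34 and 12.8% of 47. Each antibody library held at most 21 reads at any of these Grik2 sites, so their levels are loose. Grik5, the GluK5 subunit, carried K889R near its C-terminal end (7:25010643, exon 20). Untreated fresh-frozen libraries gave 16.7% and 7.41%, IgG 8.82% and 19.4%, and anti-G3BP1 3.85% and 19.1%. In the fixed embryo the same codon was edited in 1 of 205 antibody reads (0.488%).

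Of the coding sites outside receptors, those of Prdm2 and Flna had values in several libraries. Prdm2, a histone methyltransferase gene, had K1407E (4:143132500, exon 8) edited in 51.0% and 38.5% of untreated reads. IgG libraries had 39.1% and 42.9% and anti-G3BP1 libraries 51.9% and 33.7%, so all 3 groups overlapped. Prdm2, Gria4 and Grik2 were chosen after their values were seen. Flna, the actin cross-linker filamin A, had Q2333R (X:74226862, exon 41) at 23.5% and 7.69% untreated, but 1 of 31 antibody reads in the same table was edited (3.23%). A second Flna site, K2353R (X:74226276), rested on 4 reads of the first untreated fixed library and was edited in none of 199 antibody reads, which allows up to 1.51%.

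**Figure D1:**
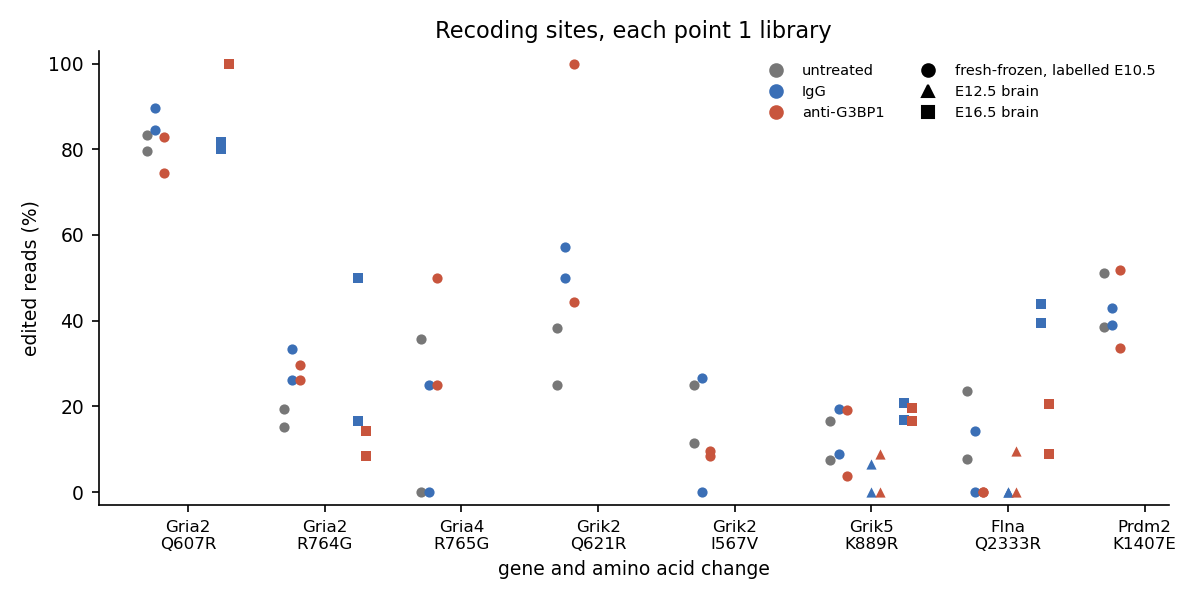
Percent edited reads (y axis) at 8 recoding sites (x axis) in each library of the fresh-frozen embryo table and, where listed, the brain tables, coloured by group, shape giving the table. Gria2 Q607R lies at 74.4% or more in every library shown for it, and Grik5 K889R is higher in each E16.5 than in each E12.5 brain library; points at 0 or 100% can rest on few reads, such as 1 read for Grik2 Q621R.

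Some genes held many sites. Of the 3654 sites, in all regions, 349 had another within 100 bases, and of the 85 sites at 20 to 80% 37 did. Dlg4 and Ttbk2, a kinase gene of the primary cilium, held 11 each, the non-coding RNAs A230103L15Rik and Kcnq1ot1 10 each and Zfp846 8. In Dlg4 all 11 lay in 3' UTRs, from 7.27 to 41.2%. The highest, 11:70037043, had 36% and 48.6% untreated, 42.3% and 46.4% in IgG and 34.3% and 39.3% in anti-G3BP1. Both IgG libraries were above both anti-G3BP1 libraries there, and the untreated pair overlapped each. The site was not called: its log2 odds ratio, anti-G3BP1 over IgG, was -0.44 (SE 0.26, adjusted p = 0.515 by the quasi-binomial model described below). A230103L15Rik held its 10 sites within 788 bases, from 5.88 to 21.6%. Kcnq1ot1, the antisense RNA of an imprinted domain, differed: only 2 of its sites had 3 or more edited reads, and 9 of 10 had no edited antibody read.

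Several 3' UTR sites had enough reads to compare tables. Draxin encodes an axon guidance protein, and its site at 4:148100373 was edited in 36.5% and 48.7% of untreated reads (134 of 328 pooled). IgG gave 47.0% and 42.1% and anti-G3BP1 40.5% and 50.3%, and pooled E16.5 brain 54.5%. Rpa1, a subunit of the single-strand DNA binding complex, held 7 sites in 645 bases, of which 2 qualified in both tables. At 11:75300578 untreated reads were 27.0% and 14.5% edited in the fixed table and 44.1% and 27.0% in the fresh-frozen one. The antibody libraries of the fixed table gave 19.9 to 25.2% and those of the fresh-frozen table gave 40.7 to 56.4%. The fresh-frozen antibody libraries were thus all above the fixed ones. The partner at 11:75301015 showed 55.3% and 56.0% against 83.3% and 90.0% in untreated libraries. Hjurp, a chaperone of centromeric histone, had 65.5% and 55.3% in the fixed table and 68.3% and 55.9% in the fresh-frozen one at 1:88263988. These 2 tables overlapped.

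Lrrc58 stood apart between tables. In the fresh-frozen table its 3' UTR site at 16:37883282 had 13 of 81 reads and 26.2% untreated and 8.51 to 25% in the antibody libraries. In the fixed embryo it had 95.5% and 100% untreated and 80.8 to 95.5% with antibody, and in the brains 95.2 to 100%. No fresh-frozen library overlapped one of the other tables. Pdrg1 went the other way at 2:153009248, with 25.8% and 23.2% untreated and 10.1 to 27.2% with antibody in the fresh-frozen table, and 1.05 to 2.78% in E16.5 brain. Differences between these tables were not tested, since each was deposited separately and tissue changes with table.

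Sites at 80% or more lay almost all in pseudogenes. Of the 95 sites, spread over 77 genes, 89 were in annotated pseudogenes and 72 were edited in 100% of untreated reads. The other 6 were Gria2 Q607R, 1 site in Rbm8a2, 2 in Ftl1-ps1, a ferritin-like gene annotated as coding, and 2 in Gm29650, a non-coding RNA on the Y chromosome. For 56 of 93 with a full window, the same 29 bases with G in place of A were found in transcripts of another gene. In the fixed table that share was 60.3%, against 0.495% of other A-to-G sites, and in the fresh-frozen table it was 59.1% against 0.570%. The level of such a site is uncertain, since these counts cannot tell reads of near-identical copies apart. Gm16418 (1:166431760) is one: 249 of 249 untreated reads were edited, all E12.5 and E16.5 reads were, and the G version is in Uqcr11, a gene of respiratory complex III. Gm10250 (15:5120827) had 234 of 234 in the fixed table and 95.1 to 100% in the fresh-frozen one, with the G version in Atp5h. Rpsa-ps10 (3:150072685) had 95.7% and 100% in the fixed table, with the G version in Rpsa, which encodes a ribosomal protein.

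Other sites were seen without treatment and then lost. Of the sites on 1 or 2 edited untreated reads with 20 or more antibody reads, 782 of 848 in the fixed table (92.2%) and 1340 of 1531 in the fresh-frozen table (87.5%) had no edited read in any antibody library. With more untreated edited reads this share fell, to 38.9% and 9.01% at 6 to 10 reads and 3.06% and 0.893% above 10. The sites at 20 to 80% recurred more often: 12 of 18 in the fixed table and 58 of 65 in the fresh-frozen table (89.2%) were at 5% or more in pooled antibody reads. Pooled over the 75 sites of that level listed in the fresh-frozen table, untreated libraries had 32.1% and 34.3%, IgG 29.9% and 28.8%, and anti-G3BP1 28.5% and 29.9%. All 4 antibody libraries were thus below both untreated ones, which chose the sites. Of the sites at that level with 10 reads in every antibody library, 28 of 33 in the fresh-frozen table and 9 of 14 in the fixed table reached 5% in each of the 4.

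**Figure D2:**
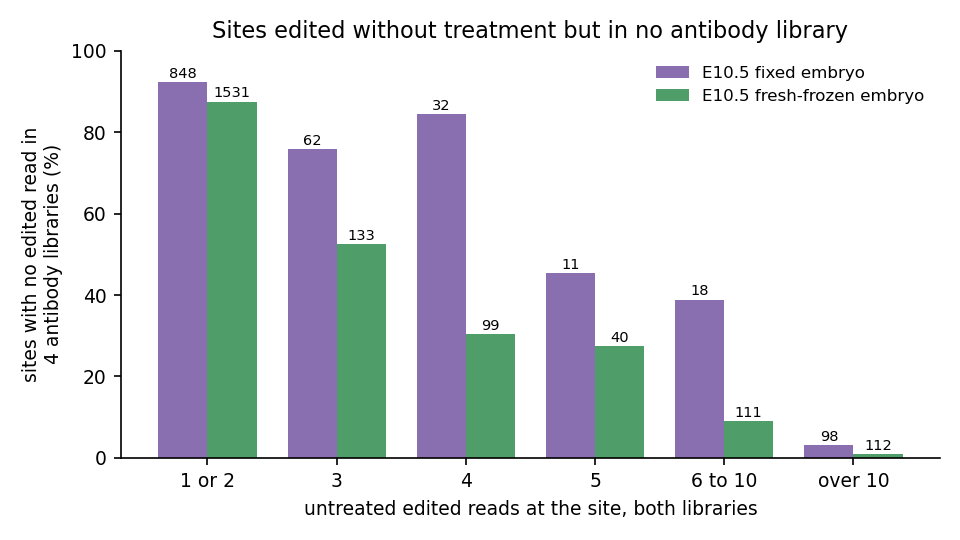
Share of sites with no edited read in 4 antibody libraries (y axis, percent) by number of edited reads in the 2 untreated libraries (x axis), with the number of sites above each bar. The bars fall from 92.2% and 87.5% at 1 or 2 reads to 3.06% and 0.893% above 10. Above 10 reads, only 18 of the 98 fixed and 74 of the 112 fresh-frozen sites were under 80% edited without treatment.

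Some sites with a high level in 1 untreated library had no edited antibody read, but the other untreated library hardly covered them. Rasgrp2, a guanine exchange factor, had K74E (19:6403067, exon 3) edited in 51.9% of 27 reads of the first untreated fixed library. The second untreated library covered it with 1 read, unedited, and the antibody libraries had 0 of 72, which allows up to 4.17%. Gm15545 (7:44994220) had 40.5% of 37 reads in that same library, out of 38 pooled untreated reads. It had 0 of 93 antibody reads, an upper limit of 3.23%. Pja2 K447E (17:64297848, exon 5), in a ubiquitin ligase gene, had 40.6% and 33.3% in the fresh-frozen untreated libraries. The antibody libraries held only 3 reads there, too few to tell whether it recurred. These 3 genes were chosen after their values were seen. In all, 7 of the 85 sites at 20 to 80% had 20 or more antibody reads and none edited.

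**Figure D3:**
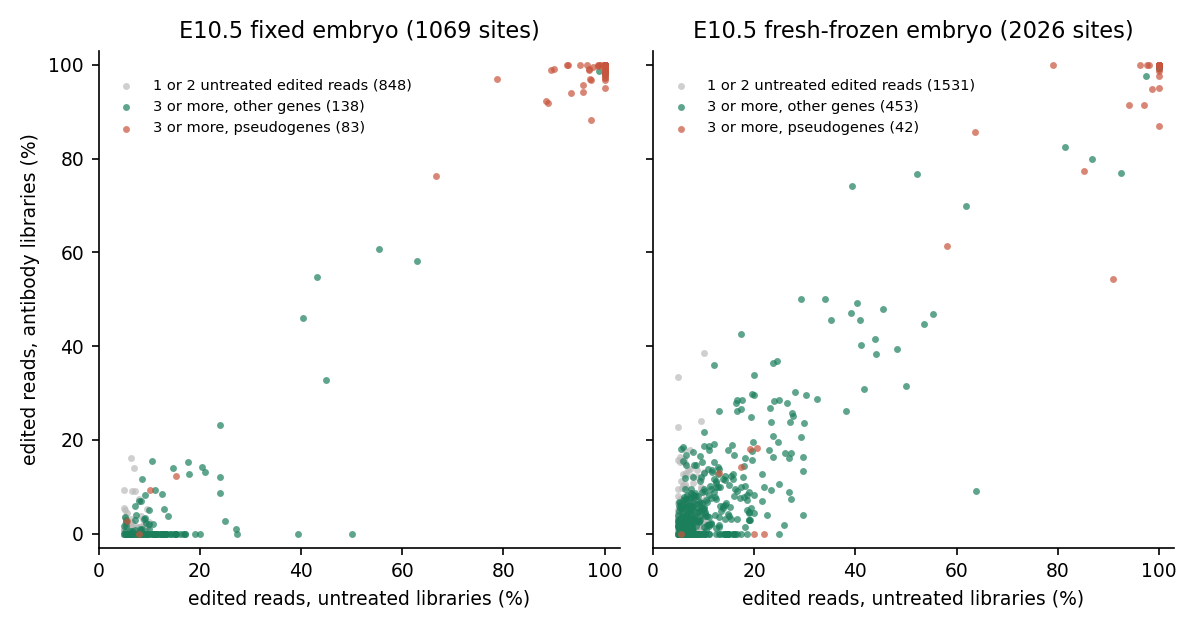
Percent edited reads in pooled untreated (x axis) and pooled antibody libraries (y axis) for each site with 20 or more antibody reads, fixed embryo left (1069 sites) and fresh-frozen embryo right (2026 sites). Pseudogene sites at 80% or more sit at the upper right, and most sites on 1 or 2 untreated edited reads lie along the bottom. Some sites on 3 or more untreated edited reads also lie along the bottom, with no edited antibody read. They number 89 of 221 in the fixed and 122 of 495 in the fresh-frozen table.

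The bases beside the site differed with level. Known preferences of the ADAR enzymes are against G just before the edited A and for G just after it. Among the 70 fresh-frozen sites at 20 to 80% with a transcript, T came before the A in 39 (55.7%) and G in 5.71%, while other A-to-G sites of that table had T in 28.5% and G in 17.6%. G came after in 58.6% and 50.7%. In the 18 fixed sites at that level, A came before in 50%, G in 5.56% (1 site) and T in 22.2%. Other A-to-G sites of the fixed table had A in 23.6%, G in 29.9% and T in 16.7%. Sites at 5 to 20% in the fresh-frozen table had T before the A in 16.9% and G in 26.8%. These shares were close to those over all transcript adenosines, 16.8% and 26.3%. Sites of that level on 3 or more edited reads had T in 23.5% and G in 24.9%. Both values lay between all adenosines and the other A-to-G sites of that table. A reverse-complement match of 13 bases, taken from within 30 bases of the site and placed within 2000 bases on the transcript, was found for 9 of the 70 sites (12.9%) and for 2.37% of other sites. For the fixed table the shares were 16.7% (3 of 18) and 1.61%. These are descriptions with no test, and a match does not show that the RNA folds so.

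Few of these sites were called between anti-G3BP1 and IgG libraries, which does not show that the others were alike. Changes are log2 odds ratios of edited reads, anti-G3BP1 over IgG, from a quasi-binomial model with limma's moderated dispersion, and sites at an adjusted p under 0.05 were called. Sites needed 10 reads in each antibody library and 3 edited reads in all, so sites that were edited only without treatment could not enter. In the fixed embryo 136 sites were tested, and 0 were called higher (0.0268% of all 11213 sites tested were) and 0 lower (0%). In the fresh-frozen table, 253 were tested and none called in either direction, as for all 26703 sites (0% and 0%). At an unadjusted p under 0.05 there were 16 in the fixed and 11 in the fresh-frozen table. Over all sites tested there were 833 of 11213 and 1710 of 26703. Limma on the empirical logit and edgeR also called none of the chosen sites. In E12.5 brain 58 were tested, with 0 called higher (0.0678% of 7372) and 1 lower (0.0136%). In E16.5 brain 238 were tested, with 1 higher (0.179% of 61869) and 1 lower (0.00162%).

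In each table the median change of the chosen sites was below that over all sites tested. The median log2 odds ratio of the tested sites was 0.11 and -0.04 in the embryo tables, fixed and fresh-frozen, and 0.80 and 0.08 in the brain tables, E12.5 and E16.5. Over all sites tested it was 0.46, 1.46, 1.93 and 0.87. Near 0 or 100% such a ratio depends on depth and on the 0.25 reads added. This bears on E12.5 brain, where 30 of 58 tested sites belonged to the class at 80% or more. It bears on the sites compared with them in every table too. Other A-to-G and C-to-T sites had medians of 3 or 4 edited reads over the antibody libraries, where 3 were needed. The chosen sites also had higher levels: their median was 7.25% edited antibody reads in the fresh-frozen table, against 2.07% for other A-to-G sites. These medians cannot tell a difference in response to the antibody from one in level or edited reads. Gria2 Q607R had a change of -0.79 in the fresh-frozen table (SE 0.61, adjusted p = 0.517 by that model), Gria2 R764G -0.05 (SE 0.31, adjusted p = 0.94) and Prdm2 K1407E 0.05 (SE 0.44, adjusted p = 0.958).

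**Figure D4:**
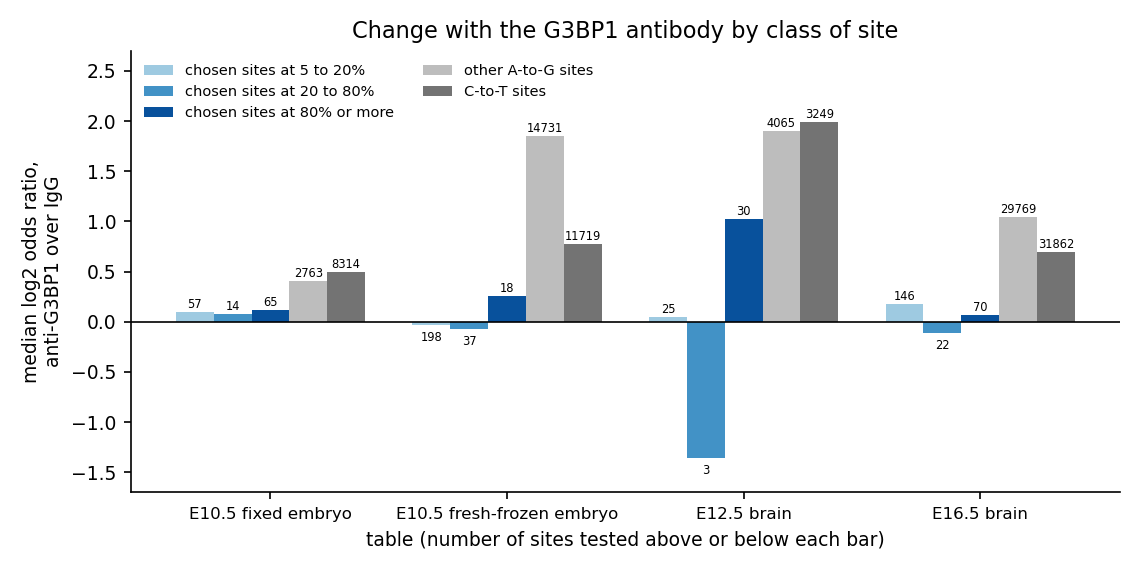
Median log2 odds ratio of edited reads, anti-G3BP1 over IgG (y axis), for the chosen sites in 3 level classes, other A-to-G sites and C-to-T sites in each table (x axis), with the number of sites tested at each bar. In the fresh-frozen table the chosen sites at 5 to 20% had a median of -0.03. Other A-to-G sites there had 1.85, on a median of 4 edited reads a site. The bar at -1.36 in E12.5 brain rests on 3 sites.

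The 3 called sites each lay in the brain. Celf1 encodes an RNA-binding protein of splicing and decay, and its 3' UTR site at 2:91019265 (exon 13) had 2.89% and 1.85% in E16.5 IgG and 6.78% and 10.1% in anti-G3BP1. The change was 1.89 (SE 0.42, adjusted p = 0.00484 with limma's moderated dispersion), higher in 2 of 2 libraries. In the fresh-frozen table the same site had 8.29% and 19 of 152 reads against 8.93% and 15.3%, which overlap. Flna Q2333R fell in E16.5 brain, from 44.0% and 39.5% to 8.89% and 20.6%, a change of -1.93 (SE 0.46, adjusted p = 0.0213). Hjurp fell in E12.5 brain, from 77.8% and 57.4% to 34.8% and 44.3%, a change of -1.36 (SE 0.32, adjusted p = 0.0206). None of the 3 calls held with edgeR, and the call of Celf1 was lost without any 1 of its 4 libraries. Flna lost its call without the first IgG library (-1.76, adjusted p = 0.66) or the first anti-G3BP1 library (-1.50, adjusted p = 0.471). Hjurp lost it without either IgG library (-1.06 and -2.40) or without the first anti-G3BP1 library (-1.06, adjusted p = 0.0937). Over all alternatives adjusted p ran from 0.00203 to 0.672 for Celf1, from 0.0116 to 0.672 for Flna and from 0.000486 to 0.967 for Hjurp.

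In the brains 264 of the sites were listed at E12.5 and 399 at E16.5. What made a site enter a table was not given, so the shares here hold for listed sites alone. Of the 85 sites at 20 to 80% without treatment, 21 were listed at E12.5 and 41 at E16.5. Of these listed sites 19 and 37 had 5% or more in pooled antibody reads. Of the 95 sites at 80% or more, 83 and 88 were listed, and all of these did so. Of 2907 sites on 1 or 2 untreated edited reads, 78 and 131 were listed, and 11 and 29 of these did.

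Editing at 7 sites was called higher at E16.5 than at E12.5. The comparison used all 8 brain libraries with the antibody as a covariate, and 72 sites had the depth. Of these 7 were called higher (0.0455% of all 15397 sites tested) and 0 lower (0.994%). At an unadjusted p under 0.05 there were 15 of the 72, 12 of them higher and 3 lower. Over all sites tested there were 1676, of which 63 were higher. All sites called higher in the whole table belonged to the set, while the 153 called lower did not. The median log2 odds ratio was 0.47 for the 72 sites and -0.63 for all sites. The chosen sites also carried more edited reads, with a median of 170.5 against 6.0 for other A-to-G sites. Among the 182 other A-to-G sites at 5% or more over both brains, with a median of 57.5 edited reads, none was called higher. Stage cannot be told apart from table.

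Grik5 K889R led. IgG libraries gave 0% and 6.48% at E12.5 and 20.9% and 16.8% at E16.5. Anti-G3BP1 libraries gave 8.86% and 0% at E12.5 and 16.48% and 19.5% at E16.5. The stages did not overlap, with means of 3.84% ± 4.53 and 18.4% ± 2.13 (SD, n = 4) and a log2 odds ratio of 2.31 (SE 0.39, adjusted p = 2.92e-09 with limma's moderated dispersion). Its call held in 14 of 15 alternatives.

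Another 2 sites without overlap lie in 3' UTRs. Tspan31 (10:127067882, exon 6), a tetraspanin gene, had 0%, 0%, 0% and 0.980% at E12.5 and 9.03%, 7.14%, 5.52% and 10.2% at E16.5, in the order IgG then anti-G3BP1. Its change was 3.93 (SE 1.10, adjusted p = 1.4e-05), and the near-zero stage makes its size depend on the added reads. Zfp811 (17:32796133, exon 4), a zinc finger gene, rose from 24%, 14.6%, 21.6% and 10% to 36.4%, 28.8%, 39.1% and 25%, a change of 1.16 (SE 0.26, adjusted p = 0.000729). At both the stages did not overlap.

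A further 3 sites were called but had fewer than 20 reads in a library or overlapping stages, and were named after their values were seen. Rpa1 at 11:75301015 rose from 67.2% ± 9.10 to 84.3% ± 1.60 (SD, n = 4), with 13 reads in the first E12.5 IgG library and a change of 1.37 (SE 0.29, adjusted p = 0.00199). Akap8, an anchor of protein kinase A in the nucleus, had no edited read at E12.5 at 17:32304591 and 11.4%, 11.8%, 4.62% and 8.51% at E16.5, a change of 3.67 (SE 1.59, adjusted p = 0.0342). Hjurp rose by 0.85 (SE 0.18, adjusted p = 0.000965), but its stages overlapped, with 34.8 to 77.8% at E12.5 and 59.8 to 70.5% at E16.5. Flna Q2333R, with as few as 5 reads in an E12.5 library, was not tested between stages. Its pooled levels were 3.33% and 29.2%.

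The count of 7 varied with the libraries used. It was 3 in the IgG libraries alone and 0 in the anti-G3BP1 libraries alone, where no site of the table was called but Grik5 still had a change of 2.41. It was 3 without the second E12.5 IgG library, the first E16.5 IgG library or the second E16.5 IgG library, and 4 without the second E16.5 anti-G3BP1 library. It was 5 without the first anti-G3BP1 library of either stage, without the second E12.5 anti-G3BP1 library 7 and without the first E12.5 IgG library 8. Over all alternatives adjusted p ran from 2.52e-10 to 1 for Grik5, from 2.02e-05 to 1 for Tspan31 and from 0.000373 to 1 for Zfp811. The call was lost in 1 of 15 alternatives for Tspan31, 7 of 15 for Zfp811, 6 of 15 for Hjurp, 8 of 14 for Rpa1 and 10 of 14 for Akap8. The change of Hjurp was 0.29 in the IgG libraries alone. No interaction of stage and antibody was called by the same model at any of the 72 sites, nor at any of all 15397 sites tested. Of the 72 sites 8 were at an unadjusted p under 0.05, with no share over all sites to set beside it.

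**Figure D5:**
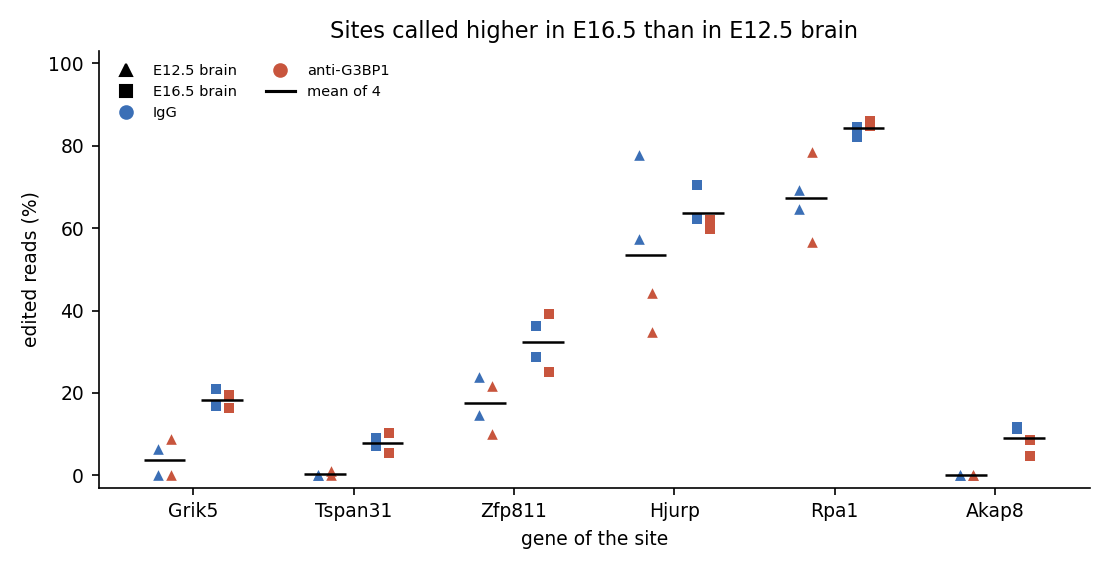
Percent edited reads (y axis) at 6 of the 7 sites called higher at E16.5 (x axis) in each brain library, triangles E12.5, squares E16.5, coloured by antibody, with a bar at the mean of 4 libraries. Grik5, Tspan31, Zfp811, Rpa1 and Akap8 show no overlap between stages and Hjurp does.

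Transcripts of the editing enzymes moved in opposite directions between the brain stages. Of 17 tested genes of the editing machinery list (20 genes), 4 were higher and 4 lower at E16.5 (32.3% and 17.7% of 20162 genes tested), with a median log2 change of -0.11 against 0.17 over all genes. Adar, the gene of ADAR1, rose from 27.1 ± 6.05 to 45.7 ± 4.08 TPM (SD, n = 4), a change of 0.76 on the log2(TPM + 1) scale (SE 0.13, limma adjusted p = 0.00136). Adarb1, the gene of ADAR2, fell by 2.05 (SE 0.37, limma adjusted p = 0.00161). Its E12.5 libraries had 125.8 and 59.2 TPM in IgG and 90.8 and 244.7 TPM in anti-G3BP1, and its E16.5 libraries 22.7 to 30.2 TPM. Stages overlapped for neither gene. Adarb2, whose product is not known to edit, rose by 0.64 on that scale (limma adjusted p = 0.0237), and its call was lost in 5 of 12 alternatives.

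Genes that hold 6 of the called sites did not move in 1 direction. Grik5 rose from 294 ± 6.99 to 395 ± 30.1 TPM (SD, n = 4; log2 change 0.42, limma adjusted p = 0.00114). Tspan31 fell by 0.82, Zfp811 by 0.62 and Hjurp by 0.39 (limma adjusted p = 7.63e-05, 0.00317 and 0.00286), while Rpa1 and Akap8 did not pass (adjusted p = 0.16 and 0.909). Cell makeup moved with stage too. The 6 markers of primitive red cells summed to 7872 to 11464 TPM at E12.5 and 34.9 to 46.0 TPM at E16.5, and the 6 markers of late neurons to 76.5 to 113 and 479 to 584 TPM. No late neuron marker was at 0 in either stage, and 3 of 6 primitive red cell markers had a mean of 1 TPM or more at E16.5. Their part in the editing results was not tested.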

How the data were processed

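Poly(A) RNA of mouse sections was sequenced in 20 libraries. Per the file headers, each of the 4 editing tables gives a count of covering reads and a count of edited reads for a site in each library. TPM values in 4 further tables were computed by the authors. Per the submitters' processing notes, the builds were mm10 and GRCm38 and the tools GATK 4.5.0.0, HISAT2 2.2.1, BWA 0.7.17, featureCounts 2.0.1, Subread and Picard 3.1.1. Their roles, and what made a site enter a table, were not given in the sources used here.

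Repeated positions were counted once. Region, codon and 29-base windows came from GENCODE vM21 (GRCm38). The reference base was A on the transcribed strand at all sites with a transcript base. Sites with 10 or more reads in each library and 3 or more edited reads in all were fitted with a quasi-binomial logistic model in Python 3.11.15 with 0.25 reads added to edited and unedited counts. The squeezeVar function of limma 3.58.1 (R 4.3.3) moderated its Pearson dispersion with edited reads as trend, and values under 1 were set to 1. Two-sided p-values were adjusted by Benjamini-Hochberg over all sites of the table, and only the chosen sites are printed. TPM, rescaled over shared genes, was tested on the log2(TPM + 1) scale by limma's trended eBayes, among genes at 1 TPM or more in at least 2 of 8 libraries. The antibody, stage and expression tests were also run on simulated data, and the interaction test was not. Intervals are exact (Clopper-Pearson), and a count of 0 was limited by 3 counts. Both cover counting error only, since reads without molecular identifiers are not independent molecules.

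The sites, the lists and the tests were chosen with earlier results of these data known. Named sites are coding sites of the recoding list with 10 reads in each library of a table and stage calls with 20 reads in each library and no overlap. Antibody calls, the 5 genes with most sites and the 5 sites with most untreated reads in each of 3 levels were added, and chromosome 18 was left out. Of the stage calls, 1 is counted but not reported here. The text prints a selection, and others are marked where they appear. Alternatives were other read minimums, other added reads, other thresholds for the set, limma on the empirical logit, edgeR 4.0.16, a replicate block and leaving out each library.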

Additional observations from a re-analysis of the deposited data

How the results depend on the processing

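The 26 results gave 325 values under alternatives, of which 233 were taken as unchanged and 0 were reversed in direction. A count was unchanged when equal or close to the main count, which includes counts that stayed at 0. The value of a single site or gene was unchanged when its call stayed the same. The number of chosen sites fell from 3654 to 357 with 50 untreated reads, 535 at 10% edited, 181 at 20%, 41 in both tables and 378 at 5% in each untreated library, and ran from 2645 to 3429 without 1 library. In E12.5 brain the 1 site lower with anti-G3BP1 became 0 with limma and 0 with edgeR and ran from 0 to 1 without 1 library, while higher sites ran from 0 to 3. In E16.5 brain the 1 higher site became 0 with limma, 0 with edgeR, 0 with the replicate block and 0 without any 1 library. The 1 lower site became 0 with adjustment over A-to-G sites, 0 with edgeR and 0 with the replicate block, and ran from 0 to 1 without 1 library. Between stages the 7 higher sites became 3 in IgG libraries and 0 in anti-G3BP1 libraries and ran from 3 to 8 without 1 library. The 0 lower sites became 1 with 0.5 added reads and 4 with limma and ran from 0 to 1. The replicate block left the stage count at 7 and changed no count of chosen sites in the embryo tables or in E12.5 brain; over all sites it moved the calls from 3 to 0 in the fixed embryo, from 6 to 20 in E12.5 brain, from 112 to 0 in E16.5 brain and from 160 to 106 between stages. Whether the replicate numbers pair the libraries is not known. Deviations of same-numbered libraries correlated at -0.0124, 0.0114, -0.0005 and 0.0038 in the 4 tables. Most of these sites had few edited reads, so counting error could hide a pairing and the values cannot decide it. The causes were not tested. Without a minimum of edited reads the E12.5 fit used no trend of the dispersion. Depth limits the choice of sites, of which 2896 rest on 2 edited reads, and the E12.5 tests, where 58 of 264 listed sites had the reads.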

Other observations

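Among sites at 5 to 20%, the 5 with most untreated reads had edited antibody reads too, at 5% or more in 3 and below it in 2. The mitochondrial gene mt-Nd6 (position 13728) had 167 of 1502 untreated reads edited in the fixed embryo (11.1%) and 9.37% of antibody reads, between 8.97% and 10.2% in each antibody library. Atrx M388V (X:105877071), in a chromatin remodeller gene, had 21 of 396 in the fresh-frozen table and 6.47% with antibody. Snhg11 (2:158384953), annotated here in a 3' UTR, had 8.08% untreated and 14.7% with antibody, with 8 of 41 reads edited at E12.5 and 19.2% at E16.5 in brain. Prrc2c R478G (1:162710649) had 33 of 439 untreated reads and 1.56% of antibody reads, from 0% to 4.04% in each library. Ankrd12 K437R (17:65987127) had 18 of 335 untreated and 24 of 773 antibody reads edited.

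Levels of the deaminase genes in the embryo tables, which were deposited separately, are given as values only. Adarb1 had 7.26 ± 5.84 TPM in the fixed and 30.8 ± 8.67 TPM in the fresh-frozen libraries (SD, n = 6). Adar had 17.5 ± 3.77 and 44.3 ± 4.02 TPM, and Adarb2 0.292 ± 0.108 and 43.4 ± 6.54 TPM.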
